A study of Caenorhabditis elegans with 2 samples.

Results

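DPL-1 occupied the upstream regions of the worm's broadly used tubulin genes very unevenly. The alpha-tubulin gene tba-2 carried one of the strongest peaks in the genome (rank 14 of 30000 in the pooled peak list). The beta-tubulin gene tbb-1 (rank 327) and the gamma-tubulin gene tbg-1 (rank 974) had weaker peaks that were well inside the reproducible list, and the beta-tubulin gene tbb-2 (rank 3353) had one at its lower limit. The tbb-1 and tbg-1 peaks have their summits nearer to the starts of other protein-coding genes, rib-2 and rpac-19. The tbb-2 summit lies inside an exon of the non-coding RNA gene C36E8.10. The alpha-tubulin genes tba-1 and tba-4 and the touch neuron genes mec-7 and mec-12 had no peak that passed the reproducibility threshold. The 8 tubulin genes are described here out of 19973 protein-coding genes on the nuclear chromosomes. They were taken by name and role, and were chosen by someone who already knew DPL-1 peak values from these same lists, so their counts and signals are given as descriptions with no test.

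The data are ChIP-seq peak lists (chromatin immunoprecipitation with sequencing) from 1 group of 2 biological replicates, with no second condition. Whole L4 larvae of pooled sexes from Caenorhabditis elegans strain OP105 were used. Per the labels, this strain carries unc119(ed3) and the integrated array wgIs105, which holds dpl-1 fused to TY1, EGFP and FLAG together with unc119. The labels give the ChIP target as the eGFP fusion in one field and the antibody as dpl-1 in another, so tagged and endogenous DPL-1 cannot be told apart. The profile is averaged over every tissue of the animal, and a weak peak in all cells and a strong one in a few cells cannot be told apart either. Each replicate has a relaxed list of 30000 peaks, the pooled replicates have another, and the irreproducible discovery rate (IDR) list holds the 3369 reproducible ones. Signal is the authors' own value for each peak, on a scale not given in the sources used here, so it is compared only within a list, and ranks (1 is the strongest) are compared between the relaxed lists of equal length.

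Alpha- and beta-tubulin form the heterodimer from which microtubules are built, and gamma-tubulin sits in the ring complex that starts new microtubules at centrosomes and other sites. In worms tba-1, tba-2, tbb-1 and tbb-2 supply the spindles of early embryos, while mec-12 (alpha) and mec-7 (beta) build the specialised microtubules of the touch receptor neurons, which do not divide. DPL-1 is the DP partner through which E2F factors bind DNA, and a subunit of the DRM complex, which represses cell cycle genes. E2F proteins recognise TTCCCGC or TTCGCGC or TTGCCGC or TTGGCGC, and the DRM subunit LIN-54 recognises the cell cycle homology region (CHR) element, TTTGAA or TTCGAA.

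The stretches printed here show the DNA under the summits of 5 of the genes, of which tbb-1 alone holds E2F spellings. Each line runs 5′ to 3′ in the direction of the gene, with the strongest pooled summit at the middle base. Capitals mark an E2F spelling, a CHR element or a GAGAG repeat (CTCTC on the other strand). The sequences are from the WBcel235 genome, which is the same assembly as ce11. They are tbb-1 at chrIII:10742581-10742781 on the minus strand, tbg-1 at chrIII:9629893-9630093 (minus), tbb-2 at chrIII:4018189-4018389 (minus), tba-4 at chrII:10918472-10918672 (plus) and mec-12 at chrIII:3139239-3139379 (minus). The mec-12 stretch was kept to 70 bp on either side of the summit so that it ends before the transcript.
tbb-1: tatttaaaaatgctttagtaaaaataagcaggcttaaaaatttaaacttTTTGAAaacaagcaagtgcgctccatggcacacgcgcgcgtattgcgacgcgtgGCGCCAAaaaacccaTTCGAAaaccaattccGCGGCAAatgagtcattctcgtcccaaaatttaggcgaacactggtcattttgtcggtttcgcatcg
tbg-1: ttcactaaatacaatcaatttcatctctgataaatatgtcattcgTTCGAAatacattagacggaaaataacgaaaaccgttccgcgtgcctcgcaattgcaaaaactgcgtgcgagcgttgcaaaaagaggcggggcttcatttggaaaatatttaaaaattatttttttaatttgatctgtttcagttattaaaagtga
tbb-2: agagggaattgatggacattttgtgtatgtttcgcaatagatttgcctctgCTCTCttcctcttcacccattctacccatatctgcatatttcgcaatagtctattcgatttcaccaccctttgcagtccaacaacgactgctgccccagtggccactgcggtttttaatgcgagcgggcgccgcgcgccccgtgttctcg
tba-4: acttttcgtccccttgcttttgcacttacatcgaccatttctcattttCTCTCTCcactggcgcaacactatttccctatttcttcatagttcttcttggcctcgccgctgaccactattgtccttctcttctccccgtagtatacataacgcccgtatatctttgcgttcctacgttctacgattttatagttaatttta
mec-12: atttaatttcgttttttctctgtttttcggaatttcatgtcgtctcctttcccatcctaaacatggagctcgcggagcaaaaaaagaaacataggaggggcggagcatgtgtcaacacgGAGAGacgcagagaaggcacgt

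Searched on both strands within 100 bp of the summit, the tbb-1 window held 2 E2F spellings, starting 3 bp and 34 bp past the summit towards the gene. It also held 2 CHR elements, 51 bp before the summit and 18 bp past it. The tbg-1 window held 1 CHR element, 55 bp before the summit, and no E2F spelling. At tbb-2 the single match was 1 GAGAG repeat on the other strand, 49 bp before the summit, at tba-4 it was 2 overlapping GAGAG matches, 52 bp and 50 bp before it, and at mec-12 it was 1 GAGAG repeat, 49 bp past it. The tba-2 window, whose sequence is not shown, held 3 E2F spellings. They started at -32, 28 and 31 bp from the summit, the last 2 of them overlapping. That window also had 1 CHR element and 2 GAGAG repeats. The tba-1 window held 3 GAGAG matches and no match to the other elements. At mec-7, where only replicate 2 lists a summit, the window around it held 1 CHR element. Of the 7 genes with a pooled summit in the window, 2 had E2F spellings under the strongest one, tba-2 and tbb-1. Their peaks are also the strongest of the set, but whether E2F spellings go with peak strength was not tested. Among all 3369 IDR summits, 19.9% of windows of that length held an E2F spelling, 48.8% a CHR element and 54.1% a GAGAG repeat. In windows 500 bp to either side of the summits these shares were 6.95%, 51.8% and 25.4%, and in the 201 bp before the start of every protein-coding gene they were 6.17%, 56.3% and 29.6%. A match is a description of letters and not a binding site. All 171 overlapping 31-base words of each gene's summit window were found once in the nuclear genome, so for words of that length these stretches are not shared with another tubulin gene.

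A summit counted for a gene when its base fell in the window around a start of any of its transcripts, reaching 1000 bp upstream and 200 bp downstream. In the IDR list 4 of the 8 tubulin genes (50%) had a summit, against 16.4% of all protein-coding genes. All 4 were among the 6 broadly expressed genes (66.7%), and neither of the 2 touch neuron genes had one. With so few genes, chosen with results known, no test was made of that contrast. In the pooled relaxed list 7 of 8 had a summit, against 44.0% of all genes. In replicate 1 this was 6 of 8, against 43.9%, and in replicate 2 it was 8 of 8, against 44.0%. The relaxed lists hold many weak peaks, so a relaxed summit is common at any gene. The count of 4 depends on the window. When it reached 500 bp upstream and 200 bp downstream, 2 genes remained, tba-2 and tbb-1, against 13.5% of all genes, and when it reached 200 bp upstream and 100 bp downstream tba-2 alone did, against 7.61%.

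**Figure D1:**
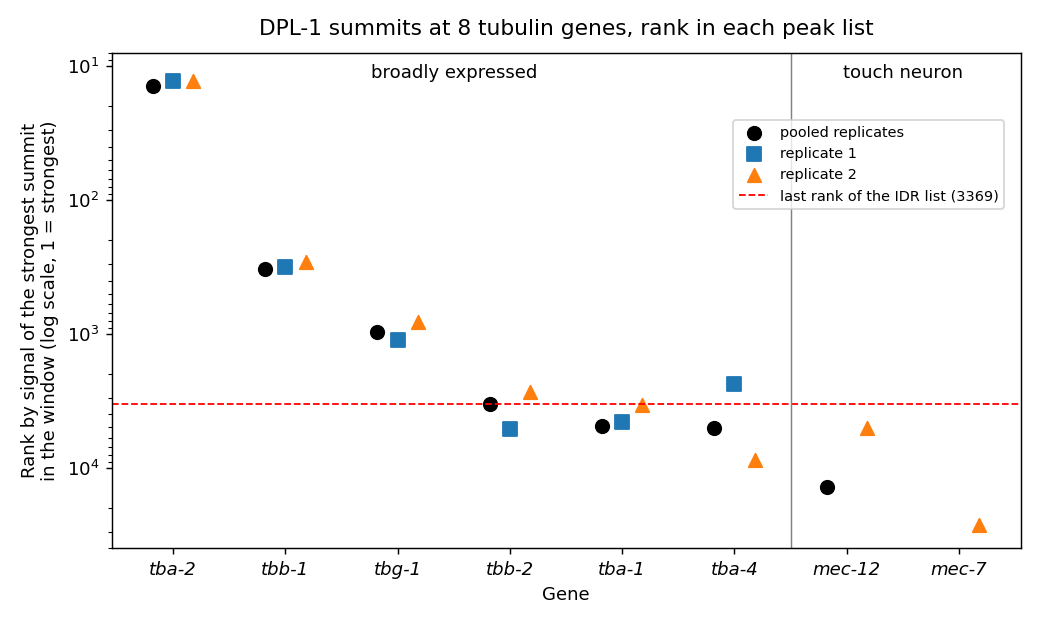
Rank by signal of the strongest DPL-1 summit in the promoter window of each tubulin gene, in the pooled list (circles), replicate 1 (squares) and replicate 2 (triangles). The y axis is logarithmic with the strongest peak at the top, and the dashed line is rank 3369, where the IDR list ends. The points of tba-2 lie at ranks 13 to 14, mec-12 has no point for replicate 1, and mec-7 has one for replicate 2 only.

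Of the 3 alpha-tubulin genes in broad use, only tba-2 had an IDR summit. Its signal was 926 and 1011 in replicates 1 and 2, and 1908 with the replicates pooled. It ranked 13 of 30000 in each replicate and 14 in the pooled list, so the replicates gave it the same place. Of the IDR peaks 99.6% had a lower signal, and among the 3266 genes with an IDR summit in their window 99.4% had a weaker strongest peak. The peak spans chrI:12966676-12967161 on ce11, 486 bp against the 344 bp that is usual in that list. Its summit at 12966934 is intergenic, 139 bp upstream of the longer tba-2 transcript (C47B2.3.2) and 663 bp upstream of the shorter one (C47B2.3.1). The summits of the replicates lay 5 bp and 7 bp from the pooled one. The next gene on that side is pbs-2, which encodes a proteasome core subunit, on the same strand with its end 420 bp away. No other protein-coding gene had the tba-2 summit in its window. Replicate 2 listed a second summit in an intron of the longer transcript, 249 bp upstream of the shorter transcript's start, with a signal of 49.2 and rank 1886. The gene body held 2 weak pooled summits, the stronger at 24.6 (rank 6763).

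The paralogue tba-1 showed weak and shifting summits instead. In the pooled list it had 2, at 421 bp (signal 32.1, rank 4898) and 170 bp (26.2, rank 6255) upstream of its longer transcript F26E4.8b.1, both under the IDR minimum of 46.4 and both also in the window of its neighbour cox-5B. Replicate 1 placed its summits at 53 bp (20.4, rank 4546) and 255 bp (9.6, rank 17337) upstream. Replicate 2 had one at 421 bp upstream (26.0, rank 3404) and another in the coding sequence, 89 bp past the start of the shorter transcript (12.1, rank 7604). The strongest summits of the replicates are therefore not at the same place, and the pooled summit matches replicate 2 to the base while the nearest in replicate 1 is 166 bp off. A strong IDR peak (633, rank 227) lies just beyond the window, 1072 bp upstream of tba-1. That summit is 29 bp upstream of cox-5B, which encodes a cytochrome c oxidase subunit and is transcribed in the opposite direction, 1100 bp from tba-1. The edge of this peak reaches into the tba-1 window. Counting overlap of intervals in place of summits therefore gave 5 tubulin genes, with tba-1 the one added, against 17.1% of all genes.

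The third of these genes, tba-4, also had only weaker summits. The strongest in the pooled list lay 134 bp upstream of the start of F44F4.11.1, with a signal of 31.4 and rank 5038. The replicates differed there. Replicate 1 had a summit at 131 bp upstream with a signal of 33.9 (rank 2363), while replicate 2 had none within 100 bp and its nearest, at 335 bp upstream, was 10.8 (rank 8818). The rank in replicate 1 is above the 3369th place and that in replicate 2 is far below it. A weaker pooled summit (9.15, rank 28752) at 910 bp upstream was the nearest to the upstream edge of the window among those counted. The nearest IDR summit upstream of tba-4 was 45959 bp away. The next gene upstream is F44F4.10, 1431 bp away and divergent, and the summit at 910 bp also lies in its window.

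**Figure D2:**
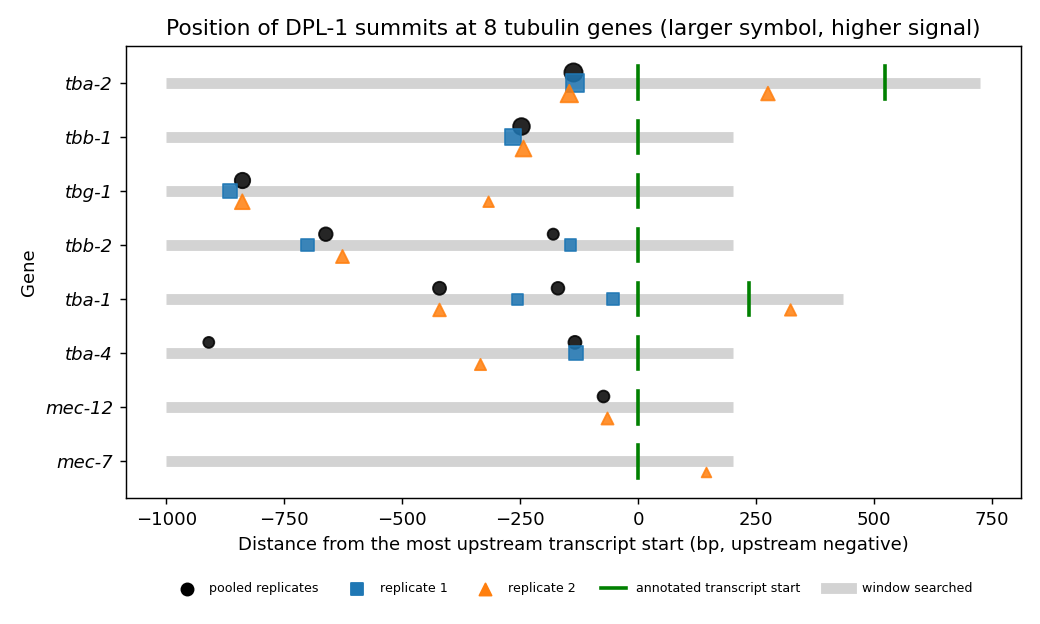
Distance of every listed DPL-1 summit from the most upstream transcript start of each tubulin gene, in bp, with upstream to the left. Symbols give the list and their size the log of the signal, green bars are transcript starts and grey bars the window searched. At tba-2, tbb-1, tbg-1 and tbb-2 the strongest summit of each replicate lies within 100 bp of the strongest pooled one. Weaker summits are also listed at tba-2, tbg-1 and tbb-2. At tba-1 and tba-4 the strongest summits of the replicates lie apart.

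Both beta-tubulin genes of broad use had an IDR summit, of very different strength. At tbb-1 the signal was 262 and 265 in replicates 1 and 2, and 507 with both pooled, with ranks of 319, 292 and 327. The pooled value lay above 90.3% of IDR peaks, and 85.7% of the genes with an IDR summit had a weaker strongest peak. The peak spans chrIII:10742514-10742807, and its intergenic summit at 10742681 is 249 bp upstream of the start of K01G5.7.1, with the replicates 16 bp and 5 bp away. This stretch is a divergent promoter of 377 bp. On its other side lies rib-2, which encodes an enzyme of heparan sulfate synthesis. The summit is 129 bp upstream of rib-2, closer than to tbb-1, so it counts for both genes, and tbb-1 drops out when only the nearest start is used. The E2F spellings printed above lie on the tbb-1 side of this summit, but both are still closer to the start of rib-2 than to that of tbb-1.

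At tbb-2 the IDR summit was nearly the weakest in the list. Its pooled signal was 46.6, against the list's minimum of 46.4, and it ranked 3353 of 3369. Replicate 1 gave 19.0 (rank 5125) and replicate 2 gave 32.6 (rank 2732), at 39 bp and 35 bp from the pooled summit. Taken alone, replicate 2 would keep this peak among its 3369 strongest and replicate 1 would not. The summit lies 662 bp upstream of the start of C36E8.5.1, at chrIII:4018289, inside an exon of the non-coding RNA gene C36E8.10. Closer to the gene, 180 bp upstream, the pooled list had only a weak summit of 10.5 (rank 24310). Replicate 1 had one of 12.4 (rank 11137) there, 143 bp upstream, and replicate 2 had none. The 2409 bp between tbb-2 and the divergent gene snpc-3.4 held 2 more IDR summits outside the window, of 49.3 at 1545 bp and 542 at 2392 bp upstream of tbb-2. The stronger is 18 bp upstream of snpc-3.4.

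The gamma-tubulin gene tbg-1 had an IDR summit, but beyond a second gene. The signal was 72.5 and 114 in replicates 1 and 2, and 175 in the pooled list, with ranks of 1117, 820 and 974. The pooled value lay above 71.1% of IDR peaks, and 57.9% of the genes with an IDR summit had a weaker strongest peak. The replicates' summits were 26 bp from the pooled one and at the same base. The peak is narrow (177 bp, chrIII:9629899-9630075), and its intergenic summit at 9629993 is 839 bp upstream of the start of F58A4.8.1. Between them lies rpac-19, which encodes a subunit shared by RNA polymerases I and III, on the same strand and with its end 91 bp before tbg-1. The summit is 108 bp upstream of rpac-19, and it is therefore counted for both genes. No IDR or pooled summit lay in the 91 bp directly before tbg-1. The only other listed summit in the window was in replicate 2, in the coding sequence of rpac-19 (7.76, rank 14090). A stronger IDR peak (1230, rank 57) stood 2334 bp upstream, at 321 bp from the start of ubc-7, which encodes a ubiquitin-conjugating enzyme. The annotation used does not say whether these same-strand genes share a transcript.

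The touch neuron pair had only weak summits, in the window and in the gene body. At mec-12 the pooled list had 1 summit, 75 bp upstream of the start of C44B11.3.1, with a signal of 15.4, rank 13861 and a -log10 q of 0.700, against 3.95 at every IDR peak. Replicate 2 had a summit at nearly the same place, 67 bp upstream, with a signal of 17.2 (rank 5079). Its -log10 q there was 4.05, the highest value in the replicate 2 list, so the low pooled value does not hold in both lists. Replicate 1 had none in the window, and its nearest lay just outside, 215 bp past the start, with a signal of 7.8 (rank 23429). At mec-7, the one member on the X chromosome, neither the pooled list nor replicate 1 had a summit in the window. Replicate 2 listed one in the coding sequence, 144 bp past the start of ZK154.3.1, with a signal of 4.70 near that list's minimum of 4.19 and rank 26670. The mec-12 gene body held 7 pooled summits, the strongest at 17.3 (rank 11415), above its promoter summit, and the mec-7 gene body held 1, at 10.5 (rank 24064). The nearest IDR summits upstream lay 5919 bp away for mec-7 and 35944 bp for mec-12. Set beside the broadly expressed genes, whose strongest pooled summits in the window ranked between 14 and 5038, mec-12 at 13861 ranked below all 6, and mec-7 had none there. In replicate 2 alone the order was not so clean, since mec-12 (5079) ranked above tba-4 (8818).

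The order of the strongest pooled summits was tba-2, tbb-1, tbg-1, tbb-2, tba-1, tba-4 and mec-12. The first 3 kept that order in each replicate. Next to each other, tbb-2, tba-1 and tba-4 were not separated by the replicates: replicate 1 put tba-4 first (2363), then tba-1 (4546) and tbb-2 (5125), while replicate 2 put tbb-2 first (2732), then tba-1 (3404) and tba-4 (8818). The median strongest IDR signal of the 4 tubulin genes was 341, against 141 over all 3266 genes with an IDR summit. Their median summit lay 455 bp upstream, against 214 bp over all those genes. The single values behind the tubulin median were 1908, 507, 175 and 46.6, so it describes no typical gene. Genes most like each member over the 2 replicates, by distance on the log10 signal scale, were F48A11.4 for tba-2 (909 and 1061 in replicates 1 and 2, distance 0.023) and lem-4 for tbb-1 (262 and 257, distance 0.013). For tbg-1 the nearest was sqv-3 (71.7 and 116, distance 0.010), a galactosyltransferase gene, and for tbb-2 it was par-1 (18.5 and 32.7, distance 0.011), a polarity kinase gene. Each was the nearest of at least 3101 genes, and with only 2 replicates such matches are close by construction.

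Across 6 related lists the share of genes with an IDR summit ran from 0% to 58.3%, against 16.4% of all genes. The lists are short, so 0 of 8 and 1 of 14 are not read as below the background. None of 8 further tubulin genes had an IDR summit, namely tba-5, tba-6, tba-7, tba-8, tba-9, tbb-4, tbb-6 and ben-1, the target of benzimidazole drugs. The highest among them was tbb-6, a beta-tubulin gene, with a pooled signal of 42.8 (rank 3651), named here after its value was seen. In the pooled list tbb-6 ranked above the broadly expressed tba-1 (4898) and tba-4 (5038). It ranked below tba-4 in replicate 1 and below tba-1 in replicate 2. Of 12 genes for tubulin folding 7 (58.3%) had an IDR summit, against 16.4% of all genes, led by pfd-6 (1170), pfd-5 (598) and pfd-1 (409). These encode subunits of prefoldin, which hands newly made tubulin and actin to the chaperonin. Their summits are shared with rde-2, exos-9 and F01G4.6. Of 11 genes for the gamma-tubulin complex and nucleation 6 (54.5%) had one. The strongest were spd-2 (260) and spd-5 (195), which build the centrosome scaffold, and mzt-1 (124), a small component of the gamma-tubulin complex. Each of these 3 summits also lies in the window of another protein-coding gene. The ring complex genes gip-1 (11.3) and gip-2 (9.0), partners of tbg-1 and likewise named after their values were seen, were below the IDR minimum in the pooled list.

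**Figure D3:**
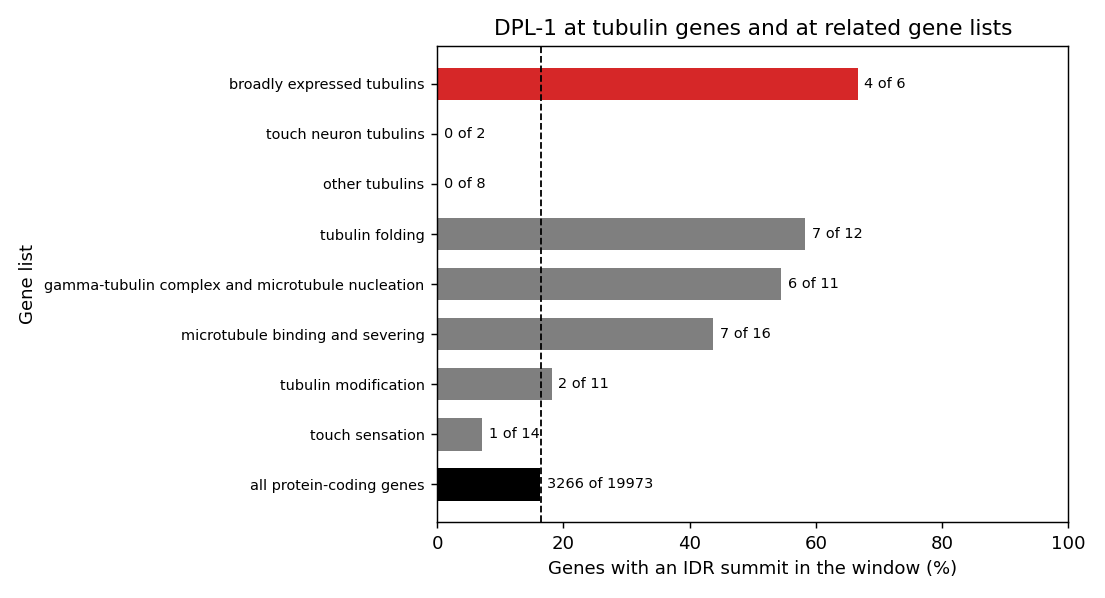
Percentage of genes with an IDR summit in the window that reaches 1000 bp upstream and 200 bp downstream of a transcript start, for the tubulin genes (red), 6 related lists (grey) and all protein-coding genes (black), with counts beside the bars. The dashed line is the share of all genes, 16.4%. The broadly expressed tubulins stand at 4 of 6, and the touch neuron and other tubulins at none.

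Of 16 genes for microtubule binding and severing 7 (43.8%) had an IDR summit, with the severing enzyme gene spas-1 (1073) and the CLASP family genes cls-3 (485) and cls-2 (187) the strongest. Tubulin modification genes were close to the background, with 2 of 11 (18.2%). These were hda-6 (431), whose mammalian counterpart HDAC6 deacetylates tubulin, and the polyglutamylase gene ttll-4 (58.4). Of 14 touch sensation genes 1 (7.14%) had an IDR summit, namely mec-6 (101), which helps the touch channel to mature. The acetyltransferase gene mec-17, whose product acts on MEC-12 tubulin, had a signal of 14 in the pooled list and was named after this value was seen. Many genes of these lists share a summit with a neighbour, among them cls-2 (with R107.5) and hda-6 (with F41H10.4). The counts are therefore of genes and not of separate peaks.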

How the data were processed

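The files are ChIP-seq peak lists (narrowPeak, per the listings deposited with them) from 2 biological replicates of 1 group, with relaxed lists for each replicate and for both pooled, and the IDR list derived from these. Per those listings peaks were called against a control alignment on ce11. Caller and aligner: not given in the sources used here. Peak signals are values the authors deposited, as are the -log10 q, which has 1 value over the IDR list, and the summit offset in bp. The IDR list equals the 3369 pooled peaks of highest signal. The lists give no read counts, so sequencing depth is unknown and no interval is given.

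The ce10 lists were not used here. Summits were placed, 1-based, against transcript starts of the WBcel235 annotation (Ensembl release 115) with Python 3.11.15, pandas 2.3.3 and NumPy 2.4.6. All peaks lie inside the WBcel235 chromosome lengths. A summit in several windows counted for each gene. Summits of different lists were matched within 100 bp. The rule for named genes took the members, genes sharing a member's IDR summit, the 3 strongest IDR-bound genes of each related list, and the gene nearest each bound member in log10 replicate signal. Other genes were named after values were seen: neighbours of the members (cox-5B, pbs-2, F44F4.10, snpc-3.4, C36E8.10, ubc-7), the unbound genes of the related lists that the text names, and genes sharing a summit with a listed gene. The members and lists were chosen with earlier results of these data known. Summit placement and the motif search were tested on simulated data. The alternatives were narrower windows, the nearest start only, each replicate left out, a stricter and a looser peak threshold, and interval overlap.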

Additional observations from a re-analysis of the deposited data

How the results depend on the processing

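The count of tubulin genes with an IDR summit was 4, all broadly expressed. It fell to 2 in the window reaching 500 bp upstream and with the nearest start only, and to 1 in the shortest window (200 bp upstream, 100 bp downstream), with the same values for the broadly expressed genes. It was 7 (6 broadly expressed and 1 touch neuron gene, mec-12) with any pooled relaxed summit, 3 among the 1684 strongest IDR peaks and 5 with interval overlap. By construction both narrower windows drop tbg-1 and tbb-2, and the shortest also drops tbb-1. The nearest start, taken among protein-coding genes only, drops tbb-1 and tbg-1. It keeps tbb-2, although that summit lies in an exon of the non-coding RNA gene C36E8.10. Taking the 3369 strongest peaks of a single replicate gave 4 without replicate 1 and 4 without replicate 2, but the genes were not the same: without replicate 2, tba-4 came in and tbb-2 went out. The touch neuron count was 0 in every alternative but the relaxed one. The share of all protein-coding genes, 16.4%, was 7.61% in the shortest window, 10.6% with the 1684 strongest peaks and 44.0% with any pooled summit, and 11.6% with the nearest start. That share was 13.5% in the window reaching 500 bp upstream and 17.1% with interval overlap. Without replicate 1 it was 16.1%, and without replicate 2 it was 15.8%. No paired analysis was possible because there is 1 group. With no read counts, a gene without a listed summit cannot be called free of DPL-1.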
